A study of Mus musculus with 7 samples.

Results

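The nuclear genes for the subunits of respiratory complexes II to V and for cytochrome c were examined in whole subcutaneous tumours of mice given Ze-qi decoction (ZQD), a herbal preparation, and of control mice. Members were chosen by symbol alone, as all rows whose gene identifier maps to Sdha to Sdhd, Cyc1, Cycs or a symbol that begins with Uqcr, Cox4 to Cox8 or Atp5. The 3 pseudogene symbols Atp5k-ps2, Atp5l-ps1 and Atp5l2-ps were left out. This gave 49 of the 32212 rows, namely 4 genes of complex II, 9 of complex III, 1 for cytochrome c, 18 of complex IV and 17 of complex V. Of these, 48 are annotated as protein-coding, and Cox6c2 is a processed pseudogene in GENCODE M21 although its symbol fits the rule. A total of 47 passed a filter of at least 0.5 FPKM in at least 3 libraries and entered the test, and the other 2, Cox8b and Cox6b2, had at most 6 and 8 reads in any library.

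The ZQD group (3 libraries, ZQD 1 to 3) and the control group (4 libraries, control 1 to 4) were both wild-type C57BL/6J mice that carried tumours of the mouse lung cancer line LLC (Lewis lung carcinoma), injected under the skin at 6 weeks of age. ZQD mice received the high dose of 42.67 g/kg from an assignment made 3 days after injection, and the label of the control mice is no treatment, with no vehicle named. Tumours were taken on day 22 according to the treatment protocol and on day 21 according to the series design, and the protocol names 8 mice a group. Whether each library stands for its own mouse is not given in the labels, so the p-values here cover the spread among these libraries, and that spread may be technical. Levels are given in FPKM, in which a gene's reads are divided by its length and by the library's total, and differences are log2(FPKM + 0.5) in ZQD minus that in control, a scale on which changes of low genes look smaller than they are.

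Electrons from succinate enter the inner mitochondrial membrane at complex II and, with those from complex I, pass through ubiquinone to complex III, then through the small carrier cytochrome c to complex IV, which hands them to oxygen. Complexes III and IV pump protons as they do so, and complex V, the ATP synthase, lets the protons flow back through a rotating ring and makes ATP. Complex II is encoded wholly in the nucleus, whereas III, IV and V each need a few subunits encoded in mitochondrial DNA, so that transcripts of both genomes meet in the finished enzyme. Several subunits of complex IV exist as a common form and as forms restricted to muscle, lung or testis.

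The libraries held 34765330 to 38673663 counted reads in ZQD and 32065288 to 49914394 in control (two-sided exact permutation p = 0.543), so that 3 reads in a gene of 1 kb came to 0.060 to 0.094 FPKM. Mitochondrially encoded RNA took 10.2 ± 1.23% of reads in ZQD and 6.72 ± 1.19% in control (SD, n = 3 and n = 4), a difference past the spread of the groups (two-sided exact permutation p = 0.0286, the smallest that 35 splits allow). FPKM are shares of each library, so the other genes share what is left. Of 5 epithelial markers, Krt19 and Cdh1 passed the filter and Krt8, Krt18 and Epcam had at most 39 reads, with a summed level of 7.21 to 21.0 FPKM in ZQD and 9.07 to 33.2 in control. The samples are labelled as tumour cells, but macrophage markers summed to 833 to 1035 FPKM in ZQD and 723 to 926 in control, and white fat markers to 93.7, 21.1 and 2.43 FPKM in ZQD 1 to 3, against 2.25 to 6.46 in control. The part of these in the results was not tested. In such bulk samples, fewer cells of a type and less RNA per cell cannot be told apart.

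The respiratory genes spanned a wide range of levels. Atp5a1, for the alpha subunit of the catalytic head of ATP synthase, was the most abundant in FPKM, followed by Cox8a, Atp5b and Uqcrb. Summed over its tested and untested members, complex V came to 774 to 799 FPKM in ZQD and 772 to 888 in control, complex IV to 671 to 802 and 767 to 869, complex III to 373 to 388 and 350 to 400, and complex II to 106 to 115 and 106 to 119, so the groups overlapped for each complex. FPKM depend on the gene length used: all 49 lengths equal the union of exons in GENCODE M21, which is 1 to 3.38 times the length of the coding transcript (median 1.204, highest for Atp5j), and a long union lowers the FPKM. Order between genes is therefore approximate, while differences between groups within a gene do not depend on it.

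**Figure D1:**
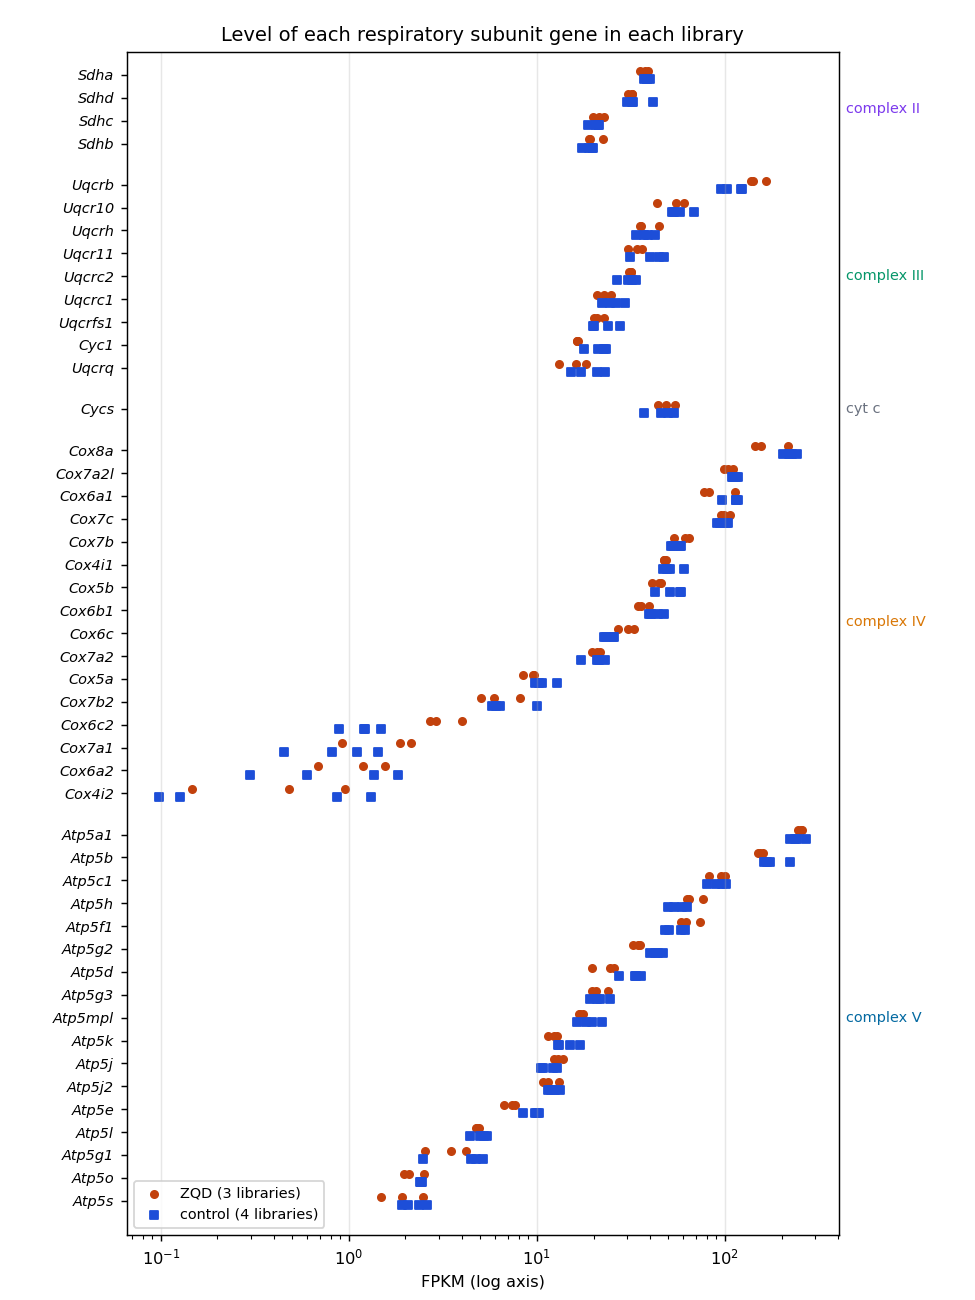
FPKM (log axis) of the 47 tested respiratory genes by complex, with a circle for each of 3 ZQD libraries and a square for each of 4 control libraries. Most rows lie within a narrow band in which the groups overlap; the rows below 4 FPKM in complex IV are the tissue-restricted forms and Cox6c2.

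No respiratory gene differed between ZQD and control after adjustment over all genes. In limma, 0 of 47 members had a Benjamini-Hochberg adjusted p under 0.05, as did 0 (0%) of all 14838 genes tested; the smallest among members was 0.131, for Cox6c2. At an unadjusted p under 0.05 there were 10 members (21.3%) beside 15.5% of all genes. Of these, 4 were higher in ZQD (8.51%, beside 5.21% of all genes), namely Uqcrb, Cox6c, Cox6c2 and Atp5h. The other 6 were lower (12.8%, beside 10.3%), namely Cyc1, Cox8a, Cox6b1, Atp5g2, Atp5d and Atp5e. Run on whole reads rebuilt from the FPKM, edgeR called 0 members and 0 genes, with 15% of genes at an unadjusted p under 0.05. DESeq2 called Uqcrb and Cox6c, 2 of 47 members (4.26%), beside 504 (3.4%) of 14832 genes. It gave no adjusted p for Cox6c2, Cox7a1, Cox6a2 and Cox4i2, so these could not be called.

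Within the set, differences ran in both directions. A positive difference was found for 18 of 47 members (38.3%) beside 41.8% of all genes, and the median was -0.09 for members and -0.04 for all genes. The spread of the differences was an SD of 0.275 over members. It was 0.278 over genes in the same range of level, 14388 of the 14838 tested. The member SD includes the pseudogene Cox6c2 at 1.12, while the highest protein-coding member lay at 0.57. Quartiles, which depend less on 1 gene, were -0.22 and 0.06 over members and -0.19 and 0.10 over those genes. The median SE was 0.111 for members and 0.133 for those genes. By complex, the median was 0.0039 for complex II, -0.13 for complex III, 0.09 for cytochrome c, -0.06 for complex IV and -0.12 for complex V. The groups did not overlap for 10 members (21.3%, beside 15.2% of all genes): ZQD lay wholly above control for Uqcrb, Cox6c and Cox6c2 (6.38%, beside 5.35%) and wholly below it for Cyc1, Cox5a, Atp5b, Atp5g2, Atp5d, Atp5k and Atp5e (14.9%, beside 9.84%). How many members lay on either side moved with the scaling. As deposited, 18 were higher and 29 lower, and 22 and 25 when libraries were scaled without mitochondrially encoded genes. The split was 20 and 27 with TMM factors, and 9 and 38 on the TPM scale. At an unadjusted p under 0.05, members split 4 and 6 as deposited, 5 and 5 with TMM, and 2 and 13 with TPM. All genes at that p split 773 higher and 1533 lower as deposited, 1113 and 1071 with TMM, and 379 and 2856 with TPM.

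**Figure D2:**
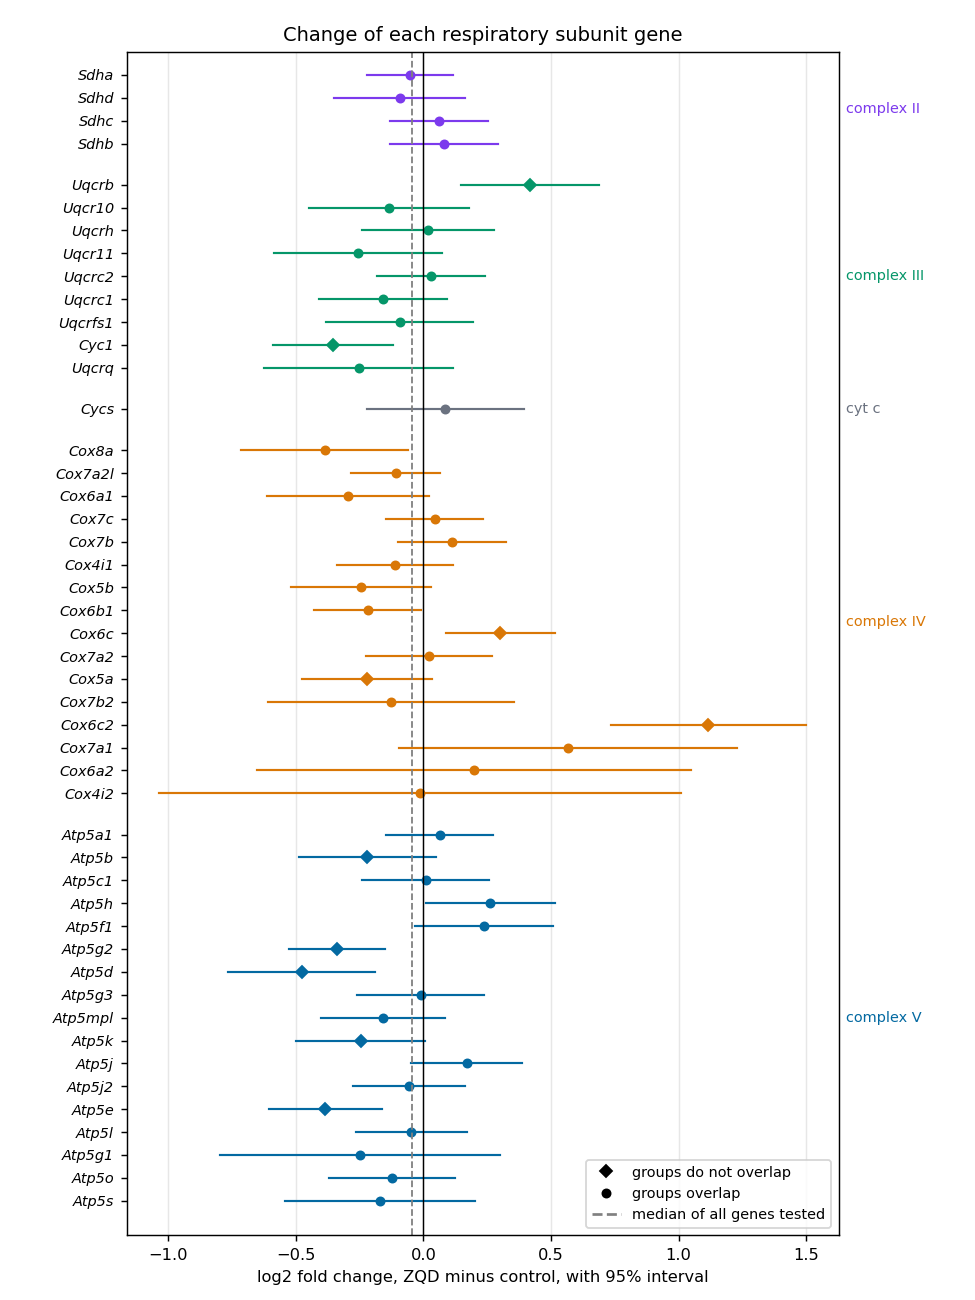
Difference of ZQD minus control in log2(FPKM + 0.5) for the 47 tested genes by complex, with 95% intervals from limma; diamonds mark genes whose groups do not overlap and the dashed line the median of all 14838 genes tested (-0.04). Complex II lies close to 0, while complexes III, IV and V each hold genes on both sides.

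Promoter sequence was not used to choose the genes, and 16 of the 36 with a promoter window hold the letters of at least 1 of 3 factors searched for. Nuclear respiratory factor 1 (NRF1), the ETS factor GABP and YY1 are the factors best known at these promoters. In RefSeq windows of 250 bases before to 50 after the start (build GRCm38.p6), 36 of the 49 members matched with 39 windows. A match to the NRF1 site, in which 1 position was free, was searched on both strands and found in 10 of 39 windows (25.6%) and in 4.60% of all 32851 windows. On both strands too, the ETS letters CCGGAAGT were in 4 (10.3%) and in 3.89% of all, and the YY1 letters AANATGGCG in 3 (7.69%) and in 2.38%. Letters in a window are a description, not a bound site. The 3 windows below hold the NRF1 letters and belong to genes that differ in direction, Sdha (-0.05), Atp5g2 (-0.34) and Atp5h (0.26), none past the adjusted threshold in limma. Each is printed on the gene's strand, which is the minus strand for all 3, and capitals mark the NRF1 letters and, in Atp5h, the ETS letters on the opposite strand near the start. The windows are chr13:74350191-74350490 for Sdha, chr15:102670998-102671297 for Atp5g2 and chr11:115419870-115420169 for Atp5h.
Sdha: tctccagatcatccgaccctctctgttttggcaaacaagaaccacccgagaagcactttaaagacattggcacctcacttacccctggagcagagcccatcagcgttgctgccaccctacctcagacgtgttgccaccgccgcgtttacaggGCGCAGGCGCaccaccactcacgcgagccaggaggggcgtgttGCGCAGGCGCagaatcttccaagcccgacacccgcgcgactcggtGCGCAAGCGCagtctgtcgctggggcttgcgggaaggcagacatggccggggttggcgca
Atp5g2: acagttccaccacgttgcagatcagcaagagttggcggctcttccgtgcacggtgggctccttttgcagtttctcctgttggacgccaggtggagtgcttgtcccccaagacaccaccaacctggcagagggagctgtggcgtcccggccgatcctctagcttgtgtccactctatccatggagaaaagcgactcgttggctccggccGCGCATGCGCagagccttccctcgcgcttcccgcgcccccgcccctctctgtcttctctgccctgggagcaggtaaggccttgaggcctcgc
Atp5h: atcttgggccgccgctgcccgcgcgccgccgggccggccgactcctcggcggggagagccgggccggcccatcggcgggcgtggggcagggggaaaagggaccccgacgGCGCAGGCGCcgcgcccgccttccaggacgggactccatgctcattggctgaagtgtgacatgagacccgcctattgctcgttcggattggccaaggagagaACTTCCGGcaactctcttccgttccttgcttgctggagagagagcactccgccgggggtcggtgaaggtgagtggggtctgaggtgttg
Sdha holds the NRF1 letters 3 times and Atp5g2 and Atp5h once each. Of the 10 tested genes with the NRF1 letters, 2 were higher and 8 lower in ZQD (median -0.11), and of the 24 tested genes whose windows lack them, 9 were higher and 15 lower (median -0.10), so the medians lay within 0.01 of each other.

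Complex II, which oxidizes succinate to fumarate in the citric acid cycle and passes the electrons to ubiquinone, was nearly the same in both groups. Sdha, the flavoprotein that holds the catalytic site, had 38.7, 35.2 and 37.4 FPKM in ZQD 1 to 3, against 38.6, 36.9, 38.5 and 39.9 FPKM in control 1 to 4. Its difference was -0.05 (95% interval -0.22 to 0.12, limma adjusted p = 0.772). Sdhd, a membrane anchor, had 32.0, 32.1 and 30.6 FPKM in ZQD, against 32.6, 30.1, 31.9 and 41.2 FPKM in control, where control 4 stands above the rest. Sdhb, the iron-sulfur subunit, had 22.4, 19.1 and 19.0 FPKM in ZQD, against 19.7, 17.4, 19.9 and 19.0 FPKM in control, and the difference of 0.08 rests on ZQD 1, without which it was 0.0043. Sdhc, the other anchor, averaged 21.4 ± 1.38 FPKM in ZQD and 20.5 ± 1.19 FPKM in control (SD, n = 3 and n = 4). All 4 intervals include 0, and their outer bounds are -0.35 and 0.29.

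In complex III, the genes that stood furthest from 0 differed in opposite directions. Uqcrb, a small subunit next to the ubiquinone pocket and the most abundant complex III transcript, had 165, 141 and 138 FPKM in ZQD 1 to 3, against 103, 123, 121 and 95.6 FPKM in control 1 to 4. Every ZQD library lay above every control library. The difference was 0.42 (SE 0.119, 95% interval 0.15 to 0.69), with an adjusted p of 0.193 in limma, 0.160 in edgeR and 0.0195 in DESeq2. Without ZQD 1, the highest library, the difference was 0.34. Of the 50-base stretches in Uqcrb transcripts, 19.2% also occur in other annotated genes, Gm16089 foremost, so part of its reads may be assigned uncertainly.

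Cyc1, the heme-bearing cytochrome c1 that hands electrons to cytochrome c, had 16.6, 16.4 and 16.3 FPKM in ZQD, against 21.1, 23.2, 17.8 and 22.9 FPKM in control. The ZQD libraries were nearly equal to each other and below every control. The difference was -0.35 (SE 0.103, limma adjusted p = 0.195). Uqcr10, a small subunit and the complex's other most abundant transcript, had 43.4, 54.7 and 60.9 FPKM in ZQD, against 53.5, 68.2, 52.4 and 57.7 FPKM in control, and the groups overlapped. The other catalytic subunit, the Rieske iron-sulfur protein Uqcrfs1, averaged 21.3 ± 1.33 FPKM in ZQD and 22.9 ± 3.73 FPKM in control (SD, n = 3 and n = 4). The core proteins Uqcrc1 and Uqcrc2 lay on either side, at -0.16 and 0.03. The small subunits Uqcr11 (-0.26), Uqcrq (-0.25) and Uqcrh (0.02) overlapped between the groups, with limma adjusted p from 0.422 to 0.958. The other 8 genes of the complex thus lay between -0.35 and 0.03, against 0.42 for Uqcrb.

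Cycs, the somatic cytochrome c, had 48.9, 43.9 and 54.2 FPKM in ZQD, against 36.9, 53.3, 45.7 and 49.6 FPKM in control. The groups overlapped, and the difference of 0.09 was -0.02 without control 1, the lowest library. As background, cytochrome c also triggers caspase activation when it leaves the mitochondrion. Cycs has many processed pseudogenes, and 28.2% of its 50-base stretches occur in other annotated genes. Hccs, which attaches its heme, was at 4.45 ± 0.589 FPKM in ZQD and 4.15 ± 0.172 FPKM in control (SD, n = 3 and n = 4), a difference of 0.09 (limma adjusted p = 0.729).

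Complex IV, cytochrome c oxidase, held the strongest transcripts of the set after ATP synthase. Cox8a, a single-helix subunit and the complex's most abundant transcript, had 156, 144 and 217 FPKM in ZQD, against 226, 219, 205 and 241 FPKM in control. ZQD 1 and ZQD 2 were well below all controls and ZQD 3 lay among them, for a difference of -0.39 (SE 0.144, limma adjusted p = 0.267) that was -0.57 without ZQD 3 and -0.27 without ZQD 2. Cox6a1, the common form of a regulatory subunit, had the same pattern of libraries, at 77.7, 82.6 and 113 FPKM in ZQD, against 118, 115, 96.9 and 114 FPKM in control. Its difference was -0.30 (limma adjusted p = 0.347), and -0.46 without ZQD 3.

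Cox6c, a small subunit with no tissue form in mammals, was the complex's counterpart to Uqcrb. It had 32.8, 27.003 and 30.7 FPKM in ZQD, against 22.7, 23.4, 25.4 and 25.8 FPKM in control, so that every ZQD library lay above every control. The difference was 0.30 (SE 0.093, 95% interval 0.09 to 0.51), with an adjusted p of 0.213 in limma, 0.175 in edgeR and 0.0331 in DESeq2. Cox6b1, which joins the monomers of the enzyme's dimer on the side where cytochrome c docks, had 34.6, 35.9 and 39.7 FPKM in ZQD, against 40.4, 44.0, 39.6 and 47.3 FPKM in control, a difference of -0.22 (limma adjusted p = 0.310) in which ZQD 3 and control 3 just overlap. Cox5a, a subunit on the matrix side, averaged 9.20 ± 0.703 FPKM in ZQD and 10.8 ± 1.37 FPKM in control (SD, n = 3 and n = 4), with no overlap and a limma adjusted p of 0.378.

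Other common subunits of complex IV differed less. Cox7a2l had 110.1, 98.7 and 104 FPKM in ZQD, against 109.9, 109.5, 114 and 117 FPKM in control. Cox4i1, the largest nuclear subunit, had 47.2, 47.7 and 48.5 FPKM in ZQD, against 51.1, 46.8, 49.2 and 60.9 FPKM in control, with control 4 apart from the rest. Cox7b had 64.6, 53.5 and 61.3 FPKM in ZQD, against 51.8, 52.9, 58.4 and 57.6 FPKM in control, and Cox7a2 had 21.8, 19.7 and 20.9 FPKM in ZQD, against 17.1, 21.5, 20.9 and 22.9 FPKM in control. Each of these 4 overlapped, with differences of -0.11, -0.11, 0.11 and 0.02. Cox5b, the zinc-binding subunit, lay at -0.25 and Cox7c at 0.04, both with overlap between groups. Shared 50-base stretches amount to 25.9% in Cox5b, 27.9% in Cox7c and 17.7% in Cox7a2l.

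The tissue-restricted forms of complex IV were present at low levels and overlapped between the groups. Cox4i2, the form that hypoxia induces in lung and some vascular cells, had 0.482, 0.952 and 0.146 FPKM in ZQD, against 0.127, 0.0980, 1.31 and 0.870 FPKM in control. Both groups hold libraries near 0.1 FPKM (3 to 5 reads) and libraries near 1 FPKM (27 to 33 reads). Cox6a2, the heart and muscle form, had 1.56, 0.684 and 1.18 FPKM in ZQD, against 1.83, 1.36, 0.596 and 0.299 FPKM in control. It was highest in control 1, where the 15 skeletal muscle markers summed to 41.4 FPKM, against 11.4 to 13.2 in the other controls. In ZQD 1 to 3 these markers summed to 19.1, 9.44 and 23.3 FPKM. Without the marker Eno3, the sums were 34.5 FPKM in control 1 and 2.74 to 4.08 in the other controls. Those of ZQD 1 to 3 were then 12.2, 3.38 and 10.9 FPKM. Cox7a1, the other heart and muscle form, had 1.88, 0.918 and 2.15 FPKM in ZQD, against 0.449, 1.11, 0.816 and 1.42 FPKM in control, and was lowest in control 1 where the muscle markers were highest. Cox8b, the muscle form of subunit 8, was listed at 0 in 4 of 7 libraries and Cox6b2, the testis form of subunit 6b, in 3.

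Cox7b2, known as the testis form of subunit 7b, was the exception in level. It had 8.11, 5.92 and 5.04 FPKM in ZQD, against 6.03, 10.02, 6.33 and 5.76 FPKM in control, or 95 to 211 reads in every library. This was 8.23 to 12.5% of the FPKM of Cox7b in ZQD and 9.996 to 18.9% in control. Of 5 germ cell markers, 4 were found, with at most 2 reads of Ldhc, 1 of Cyct, 4 of Prm2 and 18 of Prm1. They summed to 0.27 to 0.71 FPKM in ZQD and 0.43 to 0.83 in control. The highest of them averaged 0.523 FPKM, and 1 passed the filter. No 50-base stretch of Cox7b2 occurs in another annotated gene. The groups overlapped, with a difference of -0.13 (SE 0.212, limma adjusted p = 0.809).

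The mouse pseudogene Cox6c2 had 2.70, 2.91 and 3.98 FPKM in ZQD (23, 26 and 32 reads), against 1.21, 0.891, 1.49 and 1.21 FPKM in control (14, 8, 11 and 11 reads). All ZQD libraries lay above all controls. The difference of 1.12 (SE 0.168, 95% interval 0.73 to 1.5003) had the smallest limma adjusted p of the set, 0.131. For Cox6c2 the edgeR adjusted p was 0.135, and DESeq2 gave no adjusted p. As 52.7% of its 50-base stretches also occur in Cox6c, whose own transcript was higher in ZQD, its reads cannot be told apart in full from those of Cox6c. Ratios were taken on FPKM + 0.5, which makes differences look smaller for low genes such as Cox4i2. The log2 ratio of Cox6c2 to Cox6c within each library was higher by 0.82 in ZQD. Its mean was -3.06 ± 0.294 in ZQD and -3.88 ± 0.182 in control (SD, n = 3 and n = 4). Without the added 0.5, Cox6c2 averaged 10.7% of Cox6c in ZQD and 4.92% in control. The two-sided exact permutation p of the log2 ratio was 0.0286, the smallest that 35 splits allow. It was 0.114 after Benjamini-Hochberg adjustment over the 4 ratios computed. None of the 4 ratios passed the adjusted threshold. The ratio of Cox7a1 to Cox7a2 differed by 0.55 (unadjusted exact permutation p = 0.143). That of Cox6a2 to Cox6a1 differed by 0.49 (unadjusted exact permutation p = 0.400) and that of Cox4i2 to Cox4i1 by 0.10 (unadjusted exact permutation p = 0.914). Ratios for Cox6b2 and Cox8b were not computed, as both had libraries under 3 reads.

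**Figure D3:**
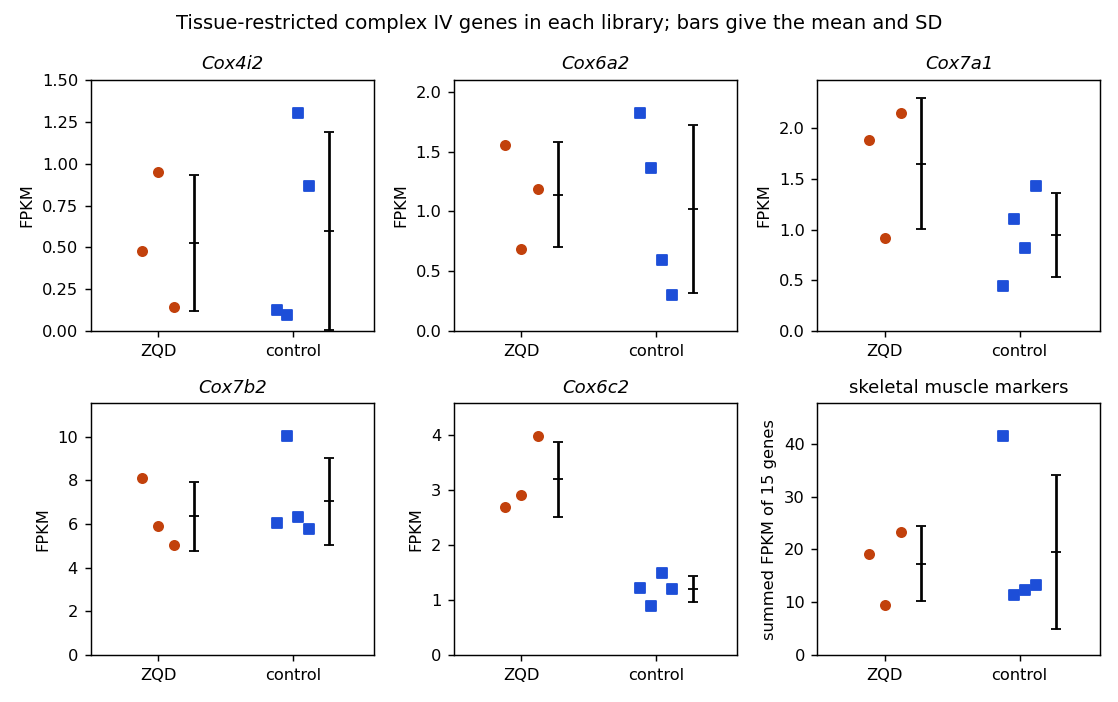
FPKM of Cox4i2, Cox6a2, Cox7a1, Cox7b2 and Cox6c2 and the summed FPKM of 15 skeletal muscle markers in each ZQD library (circles, n = 3) and control library (squares, n = 4), with bars for mean ± SD. Cox6c2 is the panel in which the groups do not overlap; Cox7b2 lies between 5.04 and 10.02 FPKM in all 7 libraries.

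In complex V, the ATP synthase, 0 genes passed the limma adjusted threshold, and differences between parts of the enzyme were not tested. The catalytic head is built of the alpha and beta subunits. Atp5a1, for alpha, had 255, 244 and 258 FPKM in ZQD, against 236, 222, 241 and 270.3 FPKM in control, and the groups overlapped at a difference of 0.06 (limma adjusted p = 0.776). Atp5b, for beta, had 150.4, 154 and 159 FPKM in ZQD, against 174, 168, 162 and 221 FPKM in control. ZQD lay below every control, narrowly so against control 3, and the difference was -0.22 (SE 0.117, limma adjusted p = 0.402) and -0.12 without control 4, the highest library.

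The central stalk, which turns inside the head, holds the delta, epsilon and gamma subunits. Atp5d, for the delta subunit, had 19.6, 24.4 and 25.7 FPKM in ZQD, against 33.2, 33.7, 27.3 and 36.0 FPKM in control. Atp5e, for the epsilon subunit that binds delta at the foot of the stalk, had 7.66, 6.70 and 7.35 FPKM in ZQD, against 10.3, 9.73, 8.44 and 9.99 FPKM in control. In both, every ZQD library lay below every control. The difference was -0.48 for Atp5d (SE 0.126, 95% interval -0.77 to -0.19, limma adjusted p = 0.179, DESeq2 adjusted p = 0.0597). It was -0.38 for Atp5e (SE 0.097, 95% interval -0.61 to -0.16, limma adjusted p = 0.173, DESeq2 adjusted p = 0.0893). Atp5c1, for the gamma subunit that forms the shaft of the same stalk, was at 92.4 ± 9.41 FPKM in ZQD and 91.8 ± 9.03 FPKM in control (SD, n = 3 and n = 4), a difference of 0.0091.

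In the peripheral stalk, which holds the head still, 3 genes had positive differences and 1 a negative one, with 0 past the limma adjusted threshold. Atp5h, for subunit d, had 76.2, 62.8 and 64.0 FPKM in ZQD, against 49.7, 59.1, 63.0 and 53.6 FPKM in control, where control 3 just reaches the ZQD range, with a difference of 0.26 (SE 0.111, limma adjusted p = 0.311). Atp5f1, for subunit b, had 73.2, 61.8 and 58.1 FPKM in ZQD, against 50.4, 61.2, 58.4 and 48.0 FPKM in control, a difference of 0.24 (SE 0.119, limma adjusted p = 0.376). Atp5j, for coupling factor 6, lay at 0.17, and Atp5o, for the subunit that joins the stalk to the head, at -0.12. The median over the 4 stalk genes was 0.20, and it was positive under each scaling tried (0.10 to 0.26), but ZQD 1 carried much of it: without that library Atp5h lay at 0.17 and Atp5f1 at 0.14. Of the 50-base stretches of Atp5h, 23.8% occur in other annotated genes, and Atp5o shares 243 exon bases on its strand with other annotated genes, among them another Atp5o identifier. Atp5d, Atp5h and Atp5f1 are given by library because their values stood apart once seen.

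The c-ring, the rotor in the membrane, is made of one protein encoded by 3 genes that differ in their import sequence and in regulation. Atp5g2, the most abundant of them here, had 32.4, 35.2 and 34.5 FPKM in ZQD, against 42.2, 44.0, 39.8 and 46.9 FPKM in control. Every ZQD library lay below every control, with a difference of -0.34 (SE 0.083, 95% interval -0.53 to -0.15, limma adjusted p = 0.168, DESeq2 adjusted p = 0.0840). Atp5g3 had 19.6, 24.0 and 20.6 FPKM in ZQD, against 20.9, 21.7, 19.1 and 24.5 FPKM in control, a difference of -0.01 whose sign turned with TMM scaling (0.04). Atp5g1 had 2.53, 3.50 and 4.22 FPKM in ZQD, against 4.72, 4.48, 2.48 and 5.20 FPKM in control, a difference of -0.25 with a limma adjusted p of 0.651. The 4 supernumerary subunits of the membrane part, Atp5k (-0.25), Atp5mpl (-0.16), Atp5j2 (-0.05) and Atp5l (-0.05), were all negative as deposited, and 1 of them turned positive when libraries were scaled without mitochondrially encoded genes. Atp5s, coupling factor B, was at 1.96 ± 0.505 FPKM in ZQD and 2.24 ± 0.312 FPKM in control (SD, n = 3 and n = 4).

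**Figure D4:**
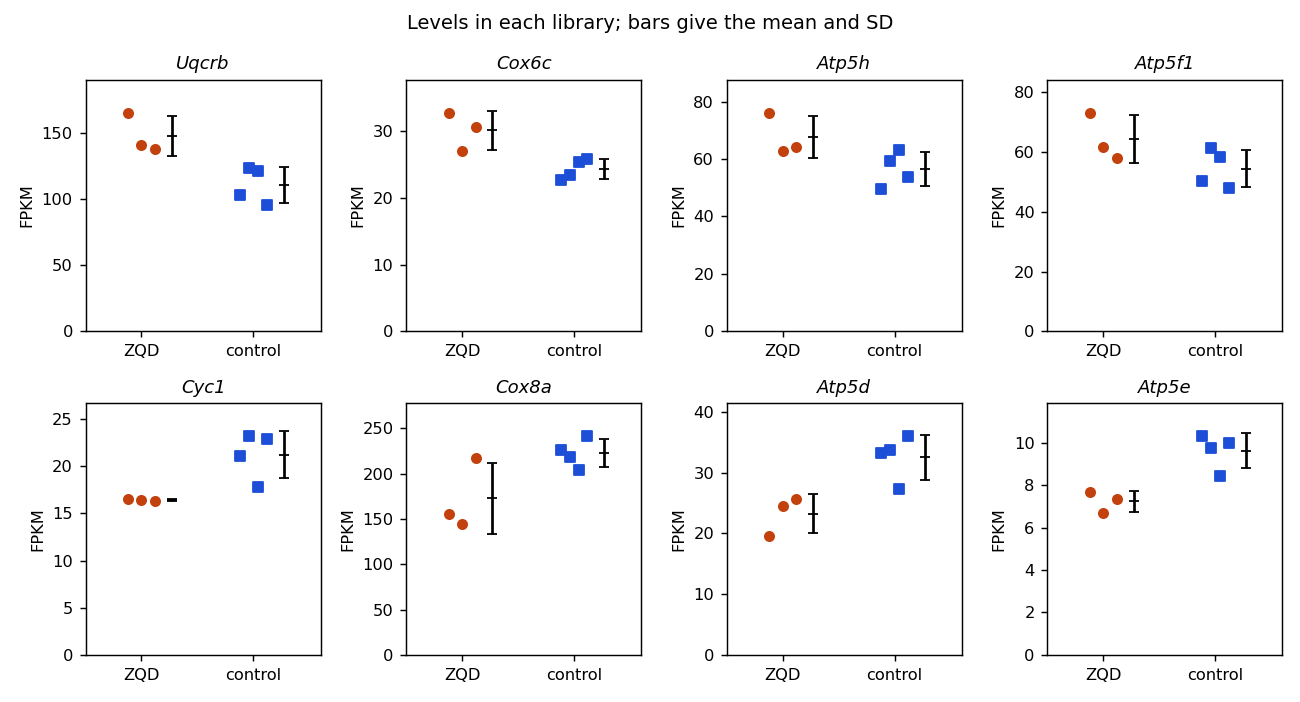
FPKM of 8 respiratory genes in each ZQD library (circles, n = 3) and control library (squares, n = 4), with bars for mean ± SD; the top row holds genes with higher means in ZQD and the bottom row genes with lower means. Uqcrb, Cox6c, Cyc1, Atp5d and Atp5e do not overlap between groups, whereas Atp5h, Atp5f1 and Cox8a do.

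The difference of a respiratory gene moved in part with the base composition of its transcript. Over the 47 genes, the difference and the GC content of the longest transcript correlated at Pearson's r = -0.34 and Spearman's rho = -0.43, a description across genes that share the same 7 libraries. Over 14681 tested genes with a GC value the figures were -0.23 and -0.27. Of 10 members below 45% GC, 6 were higher and 4 lower in ZQD (median 0.04, beside 0.02 over all genes of that GC). Of 10 members at 55% or more, 1 was higher and 9 lower (median -0.28, beside -0.15). Of the genes with negative differences, Atp5g2 (63.3% GC), Cyc1 (61.4%), Atp5d (59.3%) and Cox8a (58.5%) are in the GC-rich class, but Atp5e (49.7%) and Cox6b1 (51.0%) are between the classes and Cox5a (41.6%) is GC-poor. Of those with positive differences, Uqcrb (40.4%) and Atp5f1 (37.0%) are GC-poor, but Cox6c (46.8%) and Atp5h (46.9%) are not. Single libraries also differed in this way: the deviation of a library from the mean of all 7, over all genes, correlated with GC at -0.23, -0.12 and -0.02 for ZQD 1 to 3 and at 0.22, 0.04, -0.03 and 0.17 for control 1 to 4.

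With the GC trend of each library taken out, a step chosen after the data were seen, the correlation over members was -0.08 (Spearman's rho = -0.11). Atp5g2 then lay at -0.12 in place of -0.34 and Cyc1 at -0.16 in place of -0.35. Cox6a1 lay at -0.09 in place of -0.30 and Uqcr11 at -0.08 in place of -0.26. Atp5d lay at -0.31 in place of -0.48 and Cox8a at -0.23 in place of -0.39. Atp5e (-0.35), Uqcrb (0.38), Cox6c (0.31) and Atp5h (0.27) shifted by less. Members with an unadjusted p under 0.05 were then 5 higher and 2 lower, beside 1103 higher and 915 lower of 14681 genes. As deposited, those counts over all genes were 773 and 1533 of 14838. After GC removal, 0 members passed the limma adjusted threshold. The part of base composition in each gene's difference was not tested further.

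**Figure D5:**
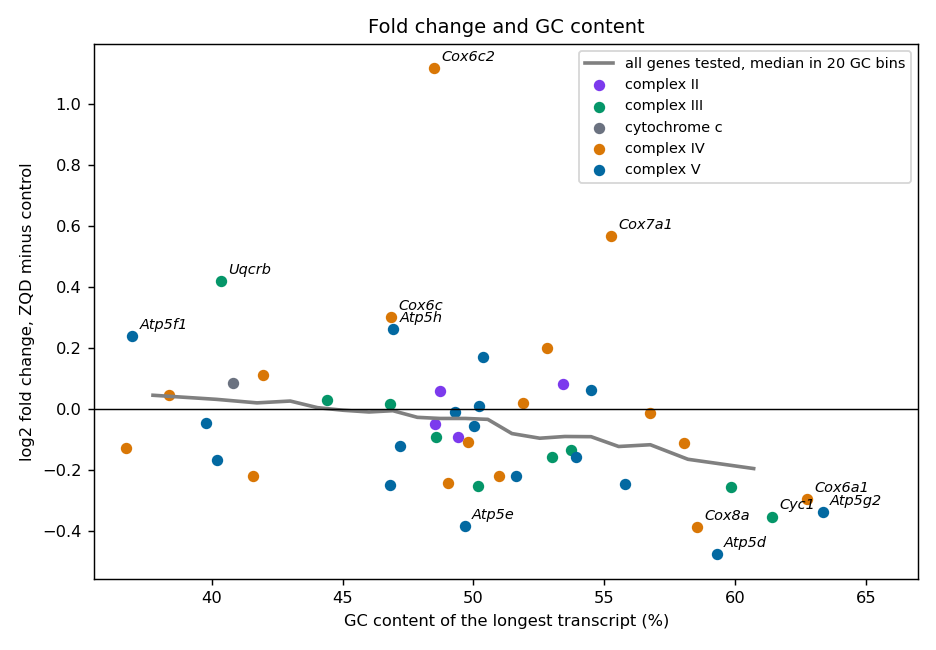
Difference of ZQD minus control in log2(FPKM + 0.5) against GC content of the longest transcript (percent) for the 47 tested respiratory genes, coloured by complex, with the median of all tested genes in 20 GC bins as a grey line. The line falls with GC; most respiratory genes above 55% GC lie below it and Cox6c2 at 1.12 lies furthest above.

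The mitochondrially encoded partners of these complexes were higher in ZQD in mean, unlike the medians of their nuclear partners in complexes III to V. All 6 had positive differences, which stayed positive under each scaling tried, and 0 passed the limma adjusted threshold. DESeq2 on the rebuilt reads called 2 of the 6, mt-Cytb (adjusted p = 0.0012) and mt-Atp6 (adjusted p = 0.00296), beside 3.4% of all genes. mt-Cytb, the cytochrome b of complex III, had 22641, 19459.9 and 19587 FPKM in ZQD, against 12474, 11896, 15321 and 8101 FPKM in control. ZQD lay wholly above control, with a difference of 0.82 (SE 0.241, limma adjusted p = 0.197). mt-Atp6, the proton channel of ATP synthase, had 134, 102 and 76.8 FPKM in ZQD, against 60.1, 65.2, 71.3 and 58.5 FPKM in control, also without overlap, with a difference of 0.67 (SE 0.172, limma adjusted p = 0.176). The catalytic subunit of complex IV, mt-Co1, overlapped between groups (0.33), as did mt-Co2 (0.37), mt-Co3 (0.24) and mt-Atp8 (0.23).

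Relative to the summed FPKM of the nuclear subunits of complex III, mt-Cytb was 58.4, 52.1 and 51.4 times as high in ZQD 1 to 3, against 35.2, 29.7, 43.8 and 22.3 times in control 1 to 4, with no overlap. For mt-Co1 and complex IV the figures were 35.1, 37.5 and 25.03 in ZQD, against 21.7, 25.2, 26.9 and 18.6 in control, with overlap in ZQD 3. mt-Co2, mt-Co3, mt-Atp6 and mt-Atp8 were listed far below mt-Co1 and mt-Cytb in all 7 libraries, although mitochondrial genes are cut from shared long transcripts, so their levels are used here only between groups.

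Genes that build or feed the complexes also held 0 past the limma adjusted threshold. Of the 6 assembly factors of complex III, all were negative as deposited (median -0.11) and 1 turned positive with TMM scaling. Bcs1l, which inserts the Rieske protein, was the furthest at -0.23, followed by Ttc19 at -0.12. Of 24 assembly factors and late subunits of complex IV, 22 were found and 21 tested, with 6 positive and 15 negative (median -0.08). Cox11, which delivers copper to the oxidase, had 1.601, 1.51 and 1.66 FPKM in ZQD, against 2.58, 2.10, 2.37 and 3.09 FPKM in control, a difference of -0.53 (SE 0.132, limma adjusted p = 0.173) with no overlap. Taco1, which activates translation of mt-Co1, had 12.4, 14.0 and 14.6 FPKM in ZQD, against 9.82, 12.3, 10.4 and 10.3 FPKM in control, a difference of 0.34 (SE 0.102, limma adjusted p = 0.209), also with no overlap.

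Of 3 tested assembly factors of complex II, 1 was positive and 2 negative, with Sdhaf4 at 0.22 and Sdhaf3 at -0.08. Of 5 factors of complex V, 2 were positive and 3 negative, with Fmc1, a factor for the head, at -0.44 and Tmem242 at 0.24. The 3 carriers that supply phosphate and exchange adenine nucleotides were all negative under each scaling tried (median -0.10), with the phosphate carrier Slc25a3 at 54.9 ± 2.79 FPKM in ZQD and 60.8 ± 3.82 FPKM in control (SD, n = 3 and n = 4) and Slc25a4 at -0.10. These lists overlapped between groups in most of their genes.

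Regulators of nuclear respiratory genes were split as deposited, with 5 positive and 5 negative of 10 tested. On the TPM scale, where the median over all genes was -0.132, the regulators split 1 and 9. Myc, which activates mitochondrial biogenesis among many targets, had 58.7, 88.1 and 84.1 FPKM in ZQD, against 97.3, 116, 103 and 118 FPKM in control, with no overlap and a difference of -0.51 (SE 0.149, limma adjusted p = 0.195). Esrra, a nuclear receptor that works with PGC-1 coactivators, lay at -0.22. Of 8 mitochondrial genes known to respond to HIF, 2 were positive and 6 negative as deposited and 4 and 4 with TMM scaling. The direction in which each responds to HIF was not taken into account in these counts. Iscu, an iron-sulfur cluster scaffold, had 7.85, 7.43 and 7.81 FPKM in ZQD, against 6.55, 4.80, 5.79 and 6.10 FPKM in control (0.39, SE 0.110, limma adjusted p = 0.193), and was the 1 gene of these 8 that DESeq2 called (adjusted p = 0.0499). Pdk1, the kinase that turns down pyruvate dehydrogenase, lay at -0.40 with overlap. Of 7 markers of mitochondrial mass outside the chain, 3 were positive and 4 negative as deposited (median -0.11), with Vdac2 at 0.16 and Vdac1 at -0.15. These markers split 1 and 6 on the TPM scale.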

How the data were processed

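The authors deposited 7 tables of FPKM, 1 per library, and, for control 1 and control 2, tables of raw counts. Libraries were paired-end and made from oligo(dT)-purified RNA, per the labels' protocols. Strandedness, build and annotation were not given in the sources used here. HISAT2, featureCounts, Subread and DESeq2 are named in the submitters' processing notes, without roles. Lengths of 27421 of the 32212 genes follow from the deposited counts and FPKM, and through them each library's FPKM were turned back into whole reads; all (100%) rebuilt values lay within 0.05 of a whole read. Of 27021 lengths compared, 98.2% equal the exon union of GENCODE M21, which supplied biotypes, GC content and exon overlaps. Symbols matched 31571 identifiers (98.0%).

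Groups came from the sample titles. The main test was limma 3.58.1 with trend in R 4.3.3, two-sided, on log2(FPKM + 0.5) over 14838 genes with at least 0.5 FPKM in at least 3 libraries, with Benjamini-Hochberg adjustment over all of them and a threshold of 0.05. Members were read off that fit. Alternatives were edgeR 4.0.16 and DESeq2 1.42.0 on rebuilt reads, other pseudocounts, filters and scalings, a replicate block, each library left out and, added after seeing the data, removal of a GC trend. Single values were compared by two-sided exact permutation over all 35 splits (SciPy 1.17.1). The fits were tested first on simulated data, with planted changes larger than those of any protein-coding member. That run does not cover changes of the sizes reported for these members. Intervals and read limits cover counting error or spread between libraries only.

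Members and gene lists were chosen with earlier results of these data known. Values by library are given for the 2 most abundant members and the 2 of smallest p in each complex and for genes with a tissue-restricted partner, plus the c-ring genes. From other lists the mitochondrially encoded partners and the 2 genes of smallest p are named. Cox8c was not analysed here. The opposite-strand exons of other genes overlap 12 members, Uqcrb, Cox6c and Atp5d among them, and 9 members share at least 10% of their 50-base stretches with other genes.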

Additional observations from a re-analysis of the deposited data

Results flagged for a closer look

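Of 33 sets of control values examined, 1 had a library far from the rest. Cox7b2, the testis form of subunit 7b, was at 10.02 FPKM in control 2 (10 when rounded), while the other controls lay between 5.76 and 6.33, a gap of 0.866 of the whole range of the 4 libraries. Chance alone puts about 1 set in 20 past this limit. Without control 2, the Cox7b2 difference of ZQD minus control was 0.04 in place of -0.13.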

How the results depend on the processing

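Members past the adjusted threshold numbered 0 under every alternative except DESeq2, which called 2 (504 genes in all). The replicate block called 1 gene, Marco, and 0 members; same-numbered libraries correlated at 0.252, 0.0998 and -0.150, so the numbers do not pair them, and as control 4 is alone in its block, estimates equal those without it. Members with an unadjusted p under 0.05 were 2 higher and 13 lower on the TPM scale, beside 379 and 2856 of all 14838 genes. With the GC trend removed, 2 members were lower, beside 915 of 14681 genes. With 1 library left out, 4 to 11 members were lower, 11 without control 3, beside 1101 to 1484 of 14838 genes. The complex II median was 0.050 with TMM, 0.058 without mitochondrially encoded genes and -0.097 on the TPM scale. Over all genes tested, the medians under these scalings were -0.0023, 0.0036 and -0.132. The complex V median was -0.206 on the TPM scale and -0.131 to -0.060 with 1 library left out, nearest 0 without ZQD 1. The median over all genes with 1 library left out was -0.048 to -0.030.

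Signs turned under at least 1 alternative for 20 of the 47 genes tested, in values none of which passed the adjusted threshold. On the TPM scale they turned for Atp5a1 (-0.040), Cox7a2 (-0.080), Cycs (-0.016), Sdhb (-0.019), Sdhc (-0.041), Uqcrh (-0.085), Uqcrc2 (-0.072), Cox7c (-0.058) and Atp5c1 (-0.093). Atp5g3 turned with edgeR (0.034), DESeq2 (0.035), TMM (0.036), median-of-ratios (0.033), scaling without mitochondrially encoded genes (0.043), the replicate block (0.051) and GC removal (0.020). Cox4i2 turned with a pseudocount of 0.1 (0.096), TMM (0.011), median-of-ratios (0.0086), scaling without mitochondrially encoded genes (0.014), the replicate block (0.148) and GC removal (0.115). Cox4i1 (0.035) and Cox7c (-0.011) turned with GC removal, Sdha (0.0027) and Atp5l (0.0017) without mitochondrially encoded genes, and Cox6a2 (-0.071) and Sdhd (0.0014) with the replicate block. With 1 library left out, ranges were -0.094 to 0.051 for Atp5g3, -0.301 to 0.283 for Cox4i2, -0.071 to 0.444 for Cox6a2, -0.065 to 0.074 for Cox7a2, -0.304 to 0.044 for Cox7b2, -0.018 to 0.162 for Cycs, -0.148 to 0.0014 for Sdhd, -0.241 to 0.0016 for Uqcr10, -0.088 to 0.072 for Uqcrh, -0.034 to 0.075 for Uqcrc2, -0.154 to 0.0019 for Uqcrfs1, -0.054 to 0.093 for Atp5c1 and -0.131 to 0.0051 for Atp5j2. The cause of these turns was not tested.

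With 1 library left out, the log2 ratio of Cox4i2 to Cox4i1 differed by -0.190 to 0.418, that of Cox6c2 to Cox6c by 0.683 to 0.973, and the mitochondrially encoded share by 2.96 to 4.17 percentage points; the smallest p then possible was 0.0667 or 0.10. Read depth limits Cox4i2, Cox6a2, Cox7a1 and Cox6c2, with as few as 3 to 12 reads in a library.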
